A study of Mus musculus with 8 samples.

Results

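*Ifng*, *Il2*, *Il10*, *Il21*, *Csf1* and *Csf2* encode 6 secreted cytokines of T cells, and they were followed in CD8+ T cells of tumors with and without LSD1, the histone H3 lysine 4 demethylase encoded by *Kdm1a*. These 6 genes were taken by symbol from a table of 55335 genes, and they held 0.0581% of all counts. The RNA-seq samples are tumor-infiltrating lymphocytes (TILs) sorted as CD8+CD44+PD-1+ cells, 4 of them from wildtype (WT) and 4 from LSD1-deficient mice (KO), out of MC38 tumors, a colon carcinoma line of the mouse implanted subcutaneously. The WT mice were Lsd1f/f, and the KO mice were Cd4-Cre+Lsd1f/f, so both carried the floxed alleles and the tumor, and both were on the C57BL/6 strain and 6 to 10 weeks of age. Cd4-Cre acts in developing T cells, CD4+ as well as CD8+, so the floxed gene was also a target in T cells that were not sequenced. WT samples pooled 2 mice each, KO samples were single mice (1 each), and 10000 to 20000 cells were lysed for each. The sample protocol gives harvest on day 18 after implantation and the text on the series' design gives 14 days. WT samples are S1 to S4, and KO samples are S5 to S8.

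Activated T cells secrete these cytokines after the T-cell receptor is engaged, and most of the genes are transcribed in bursts that end when the signal ends. IFN-γ, from *Ifng*, makes tumor cells present more antigen and activates macrophages. IL-2 and IL-21 act on T cells through receptors that share the common gamma chain, and IL-10 dampens inflammation. M-CSF, from *Csf1*, keeps macrophages alive through the receptor encoded by *Csf1r*, and GM-CSF, from *Csf2*, acts on macrophages, dendritic cells and granulocytes through a receptor with a beta chain encoded by *Csf2rb*.

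Without LSD1, *Csf1* rose 2.84-fold, and it was the only one of the 6 genes to be called, that is, to change more than 1.5-fold with edgeR's adjusted p below 0.01. *Ifng*, the most abundant of the 6, was higher by 0.49 on the log2 scale on average and did not pass. *Csf2* was 4.02-fold lower on average and did not pass, at few counts. *Il2*, *Il10* and *Il21* stayed at a few CPM (counts divided by the scaled depth of the sample) in both groups, and the SD of at least 1 group was larger than the difference between the means. Over all 15378 genes tested, 4.9% were called, with 2.91% higher and 1.99% lower without LSD1. Of the 6 cytokine genes 5 were tested, and *Il21* had too few counts.

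The promoters of *Csf1*, *Ifng* and *Il2* are printed because these genes gave the change that passed, the highest level and a classic T-cell promoter with the most matches. Each line holds the 250 bases before the RefSeq start on GRCm38.p6, 5′ to 3′ on the strand of the gene. They lie at chr3:107760470-107760719 (minus strand) for *Csf1*, chr10:118440796-118441045 (plus strand) for *Ifng* and chr3:37125955-37126204 (minus strand) for *Il2*. Capitals mark matches, on either strand, to GGAAAA (the core bound by NFAT), TGANTCA (AP-1), CTTTGA or CTTTGT (TCF and LEF), TCACACC (T-box factors) or GATAA (GATA factors).
Csf1: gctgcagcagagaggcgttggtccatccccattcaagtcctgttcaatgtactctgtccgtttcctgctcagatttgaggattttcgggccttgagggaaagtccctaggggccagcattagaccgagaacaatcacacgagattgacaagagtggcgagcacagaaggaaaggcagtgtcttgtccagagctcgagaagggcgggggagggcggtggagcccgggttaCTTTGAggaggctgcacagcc
Ifng: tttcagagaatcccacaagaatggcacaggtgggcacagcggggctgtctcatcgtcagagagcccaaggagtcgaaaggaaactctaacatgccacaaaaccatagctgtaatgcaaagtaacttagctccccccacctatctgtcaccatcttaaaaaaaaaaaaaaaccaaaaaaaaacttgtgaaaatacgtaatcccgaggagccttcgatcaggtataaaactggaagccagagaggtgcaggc
Il2: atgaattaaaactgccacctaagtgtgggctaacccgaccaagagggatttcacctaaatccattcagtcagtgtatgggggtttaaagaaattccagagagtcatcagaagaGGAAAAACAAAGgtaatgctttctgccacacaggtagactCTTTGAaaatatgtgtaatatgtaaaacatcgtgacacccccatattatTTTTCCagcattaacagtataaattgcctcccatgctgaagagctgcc

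The *Csf1* window held 1 match, CTTTGA, whose first base lies 21 bases before the start. The *Il2* window held 4 matches, which were 2 of GGAAAA, 1 of CTTTGA and 1 of CTTTGT, and its GGAAAA and CTTTGT letters at the first site adjoin with no base shared. The *Ifng* window held 0 matches. Of the windows not printed, that of *Il21* held 3 matches, GGAAAA on 2 occasions and CTTTGT once, and that of *Csf2* held 1 match to GATAA. The RefSeq start of *Csf2* lies 232 bases upstream of the start that GENCODE gives. *Il10* had no window. Short letters such as these are common, since GGAAAA was in 20.4%, TGANTCA in 6.75%, CTTTGA in 13.8%, CTTTGT in 16.5%, TCACACC in 3.33% and GATAA in 22.6% of 32851 promoter windows of the same length. A match is a description of the letters, and the absence of one says only that these letters are not in the window.

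The samples held 11657807 to 30295406 counts, so that 3 counts equal 0.106 to 0.25 CPM. *Kdm1a* lay between 42.7 and 47.2 CPM in WT and between 25.2 and 34.8 CPM in KO samples, without overlap (log2 fold change -0.55, edgeR-adjusted p = 0.0163), and did not pass the thresholds. *Cd8a*, a marker of the sorted cells, was between 1205 and 1411 CPM in WT and between 1012 and 1227 CPM in KO samples. Of 9 CD8 T-cell markers tested, 1 was called, *Cd44*, higher in KO cells (log2 fold change 0.86, edgeR-adjusted p = 0.000107), beside 2.91% of all genes. Their median was -0.26. *Cd8b1* (-0.39) and *Cd3g* (-0.36) were lower without overlap, as 17.3% of all genes did not overlap, and were not called. *Cd4* was between 1.86 and 6.87 CPM in WT and between 7.26 and 26.2 CPM in KO samples (log2 fold change 1.65, edgeR-adjusted p = 0.0161) and was not called. Of 3 markers of CD4 and regulatory T cells tested, 1 was called higher, *Zbtb7b* (1.19, edgeR-adjusted p = 9.31e-06), beside 2.91% of all genes. *Foxp3*, the remaining one, was not called (1.14, edgeR-adjusted p = 0.37). Myeloid markers also differed. The summed level of all 17 markers on a list lay between 476.9 and 1452 CPM in WT and between 236.3 and 333.6 CPM in KO samples, 13 of the 16 tested were called lower, and none was at 0 in all samples. This list includes *Csf1r*. Markers of tumor epithelium summed to at most 1.34 CPM in any sample. In whole populations of sorted cells, fewer expressing cells and less RNA per expressing cell cannot be told apart.

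Among the colony-stimulating factors, *Csf1* (ENSMUSG00000014599.10, on chromosome 3 in the GRCm38 build, from 107741048 to 107760469) was at 53.2, 119, 106 and 103 CPM in S1 to S4 and at 319, 302, 295 and 167 CPM in S5 to S8. The KO samples lay above the WT samples without overlap, with S8 the lowest of the KO and S1 the lowest of the WT samples. WT samples averaged 95.3 ± 29.0 CPM (SD, n = 4) against 271 ± 70.0 CPM (SD, n = 4) for KO samples. The edgeR estimate on the log2 scale was 1.51 (SE 0.22, 95% interval 1.05 to 1.97) at an adjusted p = 0.000186. An exact two-sided permutation test gave p = 0.0286, the smallest that 4 samples against 4 allow, and 17.3% of all genes tested had groups that did not overlap. With the mean log2 level of 16 myeloid markers as a covariate, the log2 fold change was 2.60 and the adjusted p = 0.0846, which ended the call. That score lay between 4.45 and 5.85 in WT and between 2.10 and 2.93 in KO samples, so in this design it cannot be told apart from the genotype.

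*Csf2* (ENSMUSG00000018916.5, on chromosome 11 from 54247271 to 54249667) had WT counts of 58, 98, 12 and 68 (S1 to S4) and KO counts of 26, 16, 0 and 22 (S5 to S8). Scaled for depth these were 3.37, 5.34, 0.979 and 5.61 CPM in WT and 1.71, 1.29, 0 and 0.774 CPM in KO samples. The WT samples other than S3 were above every KO sample, S3 fell among the KO samples, and the 0 counts of S7 correspond to at most 0.25 CPM with the limit set at 3 counts. WT samples averaged 3.82 ± 2.14 CPM (SD, n = 4) against 0.943 ± 0.736 CPM (SD, n = 4) for KO samples. Its log2 fold change of -2.01 had a 95% interval from -3.70 to -0.32, and its adjusted p of 0.124 by edgeR did not pass (exact two-sided permutation test, p = 0.0857).

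**Figure D1:**
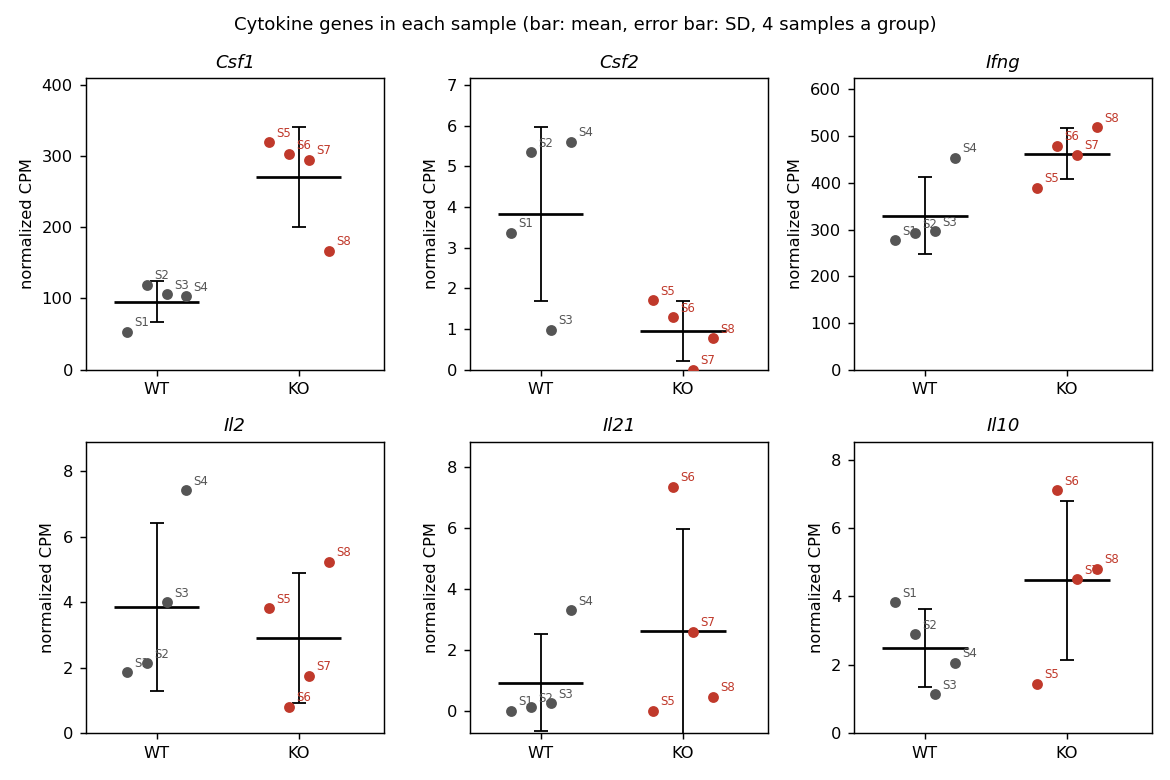
Normalized counts (CPM) of the 6 cytokine genes in each sample, on linear axes that differ between panels, for 4 WT (grey) and 4 KO (red) samples, with the mean as a bar and the SD as an error bar. The groups do not overlap in *Csf1*, where the lowest KO sample is at 167 CPM and the highest WT sample at 119 CPM, and they overlap in the other 5 genes. The *Il21* axis runs below 0 only to hold the SD bars.

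*Ifng* (ENSMUSG00000055170.4, on chromosome 10 from 118441046 to 118445892) was at 277, 292, 296 and 454 CPM in S1 to S4 and at 389, 479, 460 and 520 CPM in S5 to S8. Samples S1 to S3 lay close together below every KO sample, and S4 lay among the KO samples. WT samples averaged 330 ± 83.1 CPM (SD, n = 4) against 462 ± 54.4 CPM (SD, n = 4) for KO samples. The log2 fold change was 0.49 (standard error 0.14, 95% interval 0.19 to 0.79), with an edgeR-adjusted p of 0.0331 and an exact two-sided permutation p = 0.0571, so it passed neither threshold. Without S4, the log2 fold change was 0.68 and edgeR's adjusted p was 0.00089, and *Ifng* was called.

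The counts of *Ifng* also depend on how reads were shared with *Gm49751*, an unverified transcript on the same strand inside the *Ifng* span, from 118441419 to 118444140. It covers 336 of the 1295 exon bases of *Ifng*. How reads on both were counted is not given in the sources used here. *Gm49751* was at 67.0, 75.2, 72.2 and 70.9 CPM in WT and at 69.1, 125, 94.1 and 104 CPM in KO samples. Its WT samples were close together, S5 fell among them, and the other 3 KO samples were higher. The log2 fold change was 0.46 (edgeR-adjusted p = 0.0507), and its direction was that of *Ifng*. Without S5, the log2 fold change was 0.60 and edgeR's adjusted p was 0.004, and *Gm49751* was called.

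*Il2* (ENSMUSG00000027720.7, on chromosome 3 from 37120523 to 37125959), the T-cell growth factor gene, had 32, 39, 49 and 90 counts in WT and 58, 10, 21 and 149 counts in KO samples. These were 1.86, 2.13, 4.00 and 7.42 CPM in S1 to S4 and 3.81, 0.808, 1.75 and 5.24 CPM in S5 to S8. The groups overlapped throughout, and S4 was the highest of all samples. The log2 fold change of -0.38 had a 95% interval from -1.62 to 0.87 (edgeR-adjusted p = 0.766). It turned to 0.15 without S4.

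*Il21* (ENSMUSG00000027718.8, on chromosome 3 from 37222759 to 37232636) lies 96.8 kb from *Il2*, on the same strand. Its counts were 0, 2, 3 and 40 (S1 to S4) and 0, 91, 31 and 13 (S5 to S8). One WT sample and 3 KO samples held nearly all of the 180 counts, and each group had a sample at 0. The level reached 3.30 CPM in WT (S4) and 7.35 CPM in KO cells (S6). The mean log2 CPM was higher in KO cells by 1.33 with an exact two-sided permutation p = 0.457, and *Il21* stayed under the filter on low counts. Of all samples, S6 was the highest in *Il21* and the lowest in the neighboring gene *Il2*.

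*Il10* (ENSMUSG00000016529.5, on chromosome 1 from 131019845 to 131024974), which encodes an anti-inflammatory cytokine, was at 3.84, 2.89, 1.14 and 2.06 CPM in WT and at 1.44, 7.11, 4.51 and 4.82 CPM in KO samples. Samples S6 to S8 were above every WT sample, and S5 fell among the WT samples. WT samples averaged 2.48 ± 1.15 CPM (SD, n = 4) against 4.47 ± 2.33 CPM (SD, n = 4) for KO samples. The log2 fold change of 0.84 had a 95% interval from -0.27 to 1.94 (edgeR-adjusted p = 0.36). With the score of myeloid markers as covariate, which separates the genotypes, it was -0.86 (SE 1.43, edgeR-adjusted p = 0.909), so no direction can be read from it.

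Levels were set between genes per length, as RPKM (CPM divided by the exon length in kilobases). *Ifng* was first and *Csf1* second of the 6 genes in every sample. *Ifng* averaged 255 ± 64.2 RPKM (SD, n = 4) for WT against 357 ± 42.0 RPKM (SD, n = 4) for KO samples, and *Csf1* averaged 18.0 ± 5.48 RPKM (SD, n = 4) and 51.3 ± 13.3 RPKM (SD, n = 4). The other 4 genes were at mean levels of 0.174 to 4.78 RPKM in WT and 0.494 to 3.41 RPKM in KO cells. In WT the order of these means was *Csf2*, *Il2*, *Il10* and *Il21*, and in KO cells it was *Il10*, *Il2*, *Csf2* and *Il21*. In WT, *Il21* was last in every sample, below every value of *Il10*, and the places of *Csf2*, *Il2* and *Il10* changed between samples with overlap of neighbors. In KO cells the third to sixth places changed from sample to sample, and neighbors in that order overlapped. Of the counts on the 6 genes, *Ifng* took between 69.2% and 81.7% in WT and between 54.4% and 74.5% in KO samples, and *Csf1* took 15.7% to 28.3% and 23.9% to 44.6%.

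Ratios within a sample show whether 2 of the genes changed unequally. Over the 15 pairs, the log2 ratio of counts (with 1 added to each) did not overlap between WT and KO cells in 1 pair, *Csf1* to *Csf2*. That ratio was 4.81 on average in WT, between 3.96 and 6.64, and 8.69 in KO cells, between 7.49 and 11.8. The difference was 3.88 (exact two-sided permutation test, p = 0.0286, not adjusted over the 15 pairs). S7, with 0 counts of *Csf2*, held the highest ratio. Without S7 the difference was 2.84 (exact permutation test, p = 0.0571). The log2 ratio of *Ifng* to *Csf1* was 1.82 in WT and 0.81 in KO cells, and the samples overlapped through S8, at 1.64 (exact two-sided permutation test, p = 0.0857). Without S8 the difference in that ratio was -1.29 with an exact permutation p = 0.0286. The mean log2 ratio of *Ifng* to *Csf2* was 6.63 in WT and 9.50 in KO cells, with overlap (exact permutation test, p = 0.0571).

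**Figure D2:**
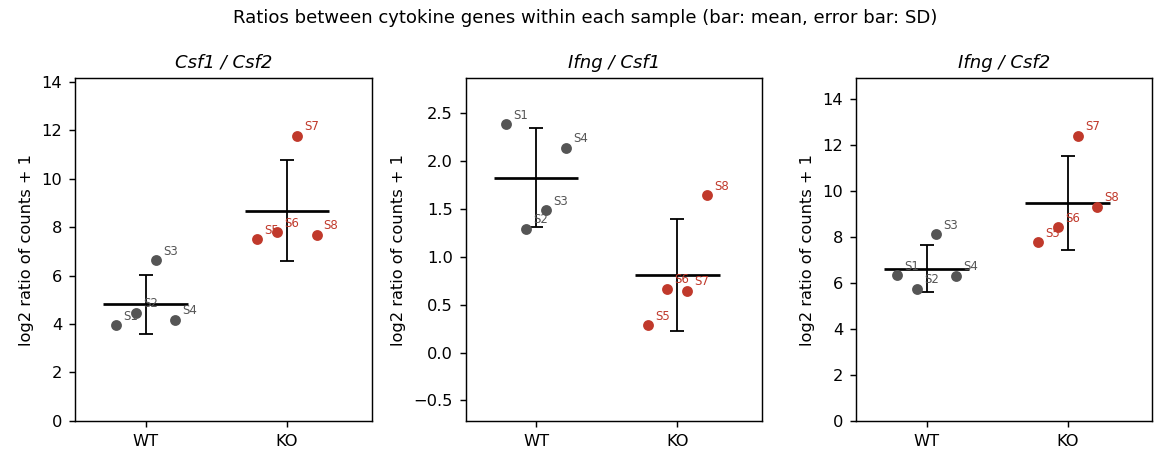
The log2 ratio of counts (with 1 added to each) between 2 cytokine genes in each sample, for *Csf1* to *Csf2*, *Ifng* to *Csf1* and *Ifng* to *Csf2*, with the mean as a bar and the SD as an error bar over 4 samples. WT and KO samples do not overlap for *Csf1* to *Csf2*, whose mean is 4.81 in WT and 8.69 in KO cells, and they overlap for the other 2 ratios.

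The receptors of these cytokines were compared next, and 4 of the 12 receptor genes tested were called, 1 higher and 3 lower in KO cells, where 4.9% of all genes tested were called. The median log2 fold change of the list was -0.31, against -0.01 over all genes tested. *Il2ra*, the alpha chain that gives the IL-2 receptor its high affinity, was at 161, 183, 170 and 232 CPM in S1 to S4 and at 309, 318, 334 and 336 CPM in S5 to S8. The lowest KO sample lay above the highest WT sample, and edgeR gave a log2 fold change of 0.80 (SE 0.11) at an adjusted p = 0.000132. The partner chains of the IL-2 receptor, *Il2rb* and *Il2rg*, had log2 fold changes of 0.10 and -0.06 and were not called.

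*Csf1r*, the M-CSF receptor, went the other way from its ligand. It was at 37.4, 31.0, 82.9 and 28.5 CPM in WT and at 7.42, 9.54, 3.50 and 2.78 CPM in KO samples, with S3 the highest. It is itself one of the 16 markers in the myeloid score. The edgeR estimate on the log2 scale was -2.97 (SE 0.39) at an adjusted p = 7.62e-05. *Csf2rb* fell from a WT mean of 9.70 ± 3.03 CPM (SD, n = 4) to 1.97 ± 1.05 CPM (SD, n = 4), with log2 fold change -2.31 (edgeR-adjusted p = 0.00145). *Ifngr2*, the signalling chain of the IFN-γ receptor, was at 2.44, 5.56, 14.8 and 4.54 CPM in WT and at 0.197, 1.05, 0.334 and 1.05 CPM in KO samples, with log2 fold change -3.32 (edgeR-adjusted p = 0.00269). It missed the threshold without S3 (adjusted p = 0.0302) or S7 (adjusted p = 0.0103). The other IFN-γ receptor chain, *Ifngr1*, was at 375 ± 39.0 CPM (SD, n = 4) and 365 ± 35.7 CPM (SD, n = 4).

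Among the receptor genes that were not called, *Il10ra* averaged 256 ± 20.9 CPM (SD, n = 4) for WT against 179 ± 10.3 CPM (SD, n = 4) for KO samples without overlap. Its edgeR-adjusted p of 0.00174 passed, and its log2 fold change of -0.52 did not reach the fold threshold. *Csf2ra*, *Csf2rb2*, *Il10rb* and *Il21r* had log2 fold changes of -0.68, -2.34, -0.003 and -0.10. With the score of myeloid markers as covariate, the log2 fold changes of *Csf2rb* and *Ifngr2*, which are not in the score, were -0.25 (SE 0.99) and -0.31 (SE 1.56). That of *Il2ra* was 0.65 (edgeR-adjusted p = 0.622), and none was called. The score separates the genotypes, so this fit cannot tell a myeloid part from an effect of the genotype. The value of *Csf1r* under that covariate is not compared here, because the score contains the gene. The part of myeloid RNA in these differences was not tested.

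**Figure D3:**
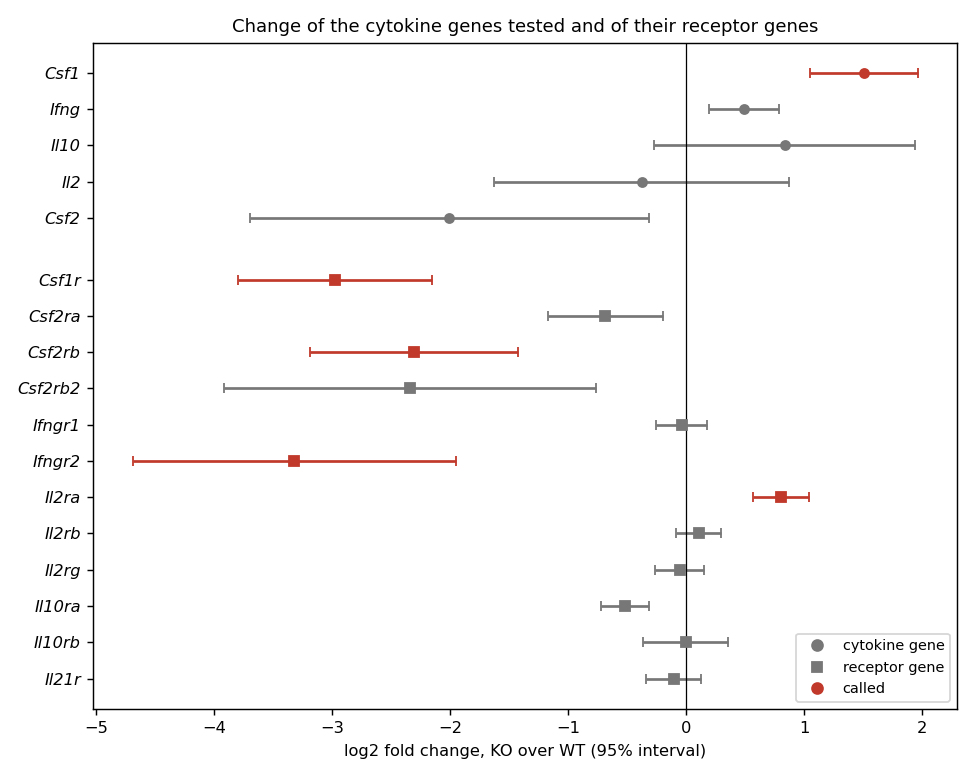
Log2 fold change of KO over WT cells with its 95% interval for the 5 cytokine genes tested (circles) and 12 receptor genes (squares), with called genes in red. *Csf1* (1.51) and *Il2ra* (0.80) lie above 0, and *Csf1r* (-2.97), *Csf2rb* (-2.31) and *Ifngr2* (-3.32) lie below 0.

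**Figure D4:**
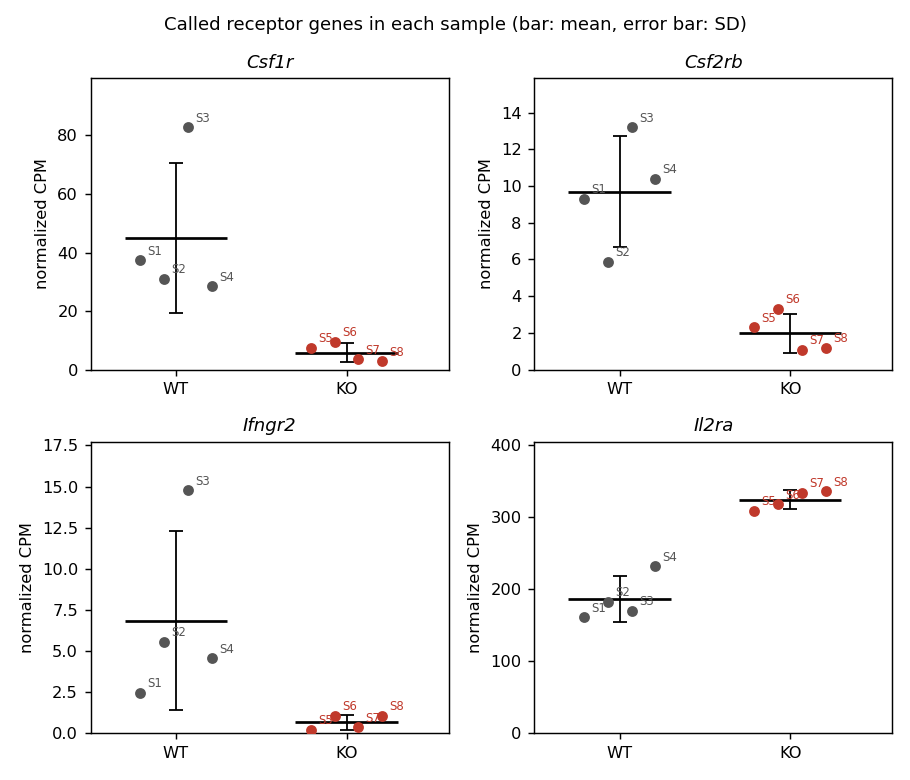
Normalized counts (CPM) of the 4 called receptor genes in each sample, with the mean as a bar and the SD as an error bar. KO samples lie below all WT samples in *Csf1r*, *Csf2rb* and *Ifngr2* and above them in *Il2ra*, where they sit between 309 and 336 CPM.

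Of 38 transcription factor genes known to act at these cytokine genes, 4 were called, all higher in KO cells, where 2.91% of all genes tested were called higher. The median log2 fold change of the list was 0.23, beside -0.01 for all genes. *Irf4*, a factor induced by T-cell receptor signals, rose from a WT mean of 189 ± 26.4 CPM (SD, n = 4) to 389 ± 42.8 CPM (SD, n = 4), with log2 fold change 1.04 (edgeR-adjusted p = 1.21e-05). *Egr2* and *Egr3*, which are induced through NFAT, had log2 fold changes of 0.90 and 0.77, at edgeR-adjusted p of 0.00128 and 0.00221. *Bcl6*, a repressor of effector genes, had log2 fold change 0.83 (edgeR-adjusted p = 0.00292). In each of these 4 genes, the KO samples were above all WT samples. In either direction, the groups did not overlap in 15 of the 38 genes on the list and in 17.3% of all genes tested. *Bcl6* missed the adjusted p threshold without S1, S2, S4 or S7, and *Egr3* without S6 or S7, with adjusted p of at most 0.0146.

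Genes listed for the control of cytokine mRNA decay showed no call, 0 of 12, with edgeR or with DESeq2, which is near the 4.9% called by edgeR over all genes, and 5 had an unadjusted p under 0.05 from edgeR. The 2 most abundant by the mean over all samples were *Tnfaip3* and *Ptbp1*. *Tnfaip3*, a deubiquitinase that restrains NF-κB, averaged 1507 ± 130 CPM (SD, n = 4) for WT against 1592 ± 112 CPM (SD, n = 4) for KO samples, and *Ptbp1*, an RNA-binding protein, averaged 381 ± 22.9 CPM (SD, n = 4) and 395 ± 7.86 CPM (SD, n = 4). Their log2 fold changes were 0.08 and 0.05.

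Of 24 known targets of IFN-γ that were tested, 2 were called higher and 4 lower in KO cells, beside 2.91% and 1.99% of all genes. Their median log2 fold change was 0.19, and that of all genes was -0.01. *Cd274*, which encodes PD-L1, rose from a WT mean of 101 ± 11.8 CPM (SD, n = 4) to 162 ± 23.3 CPM (SD, n = 4), with log2 fold change 0.69 (edgeR-adjusted p = 0.00122). *Cxcl10*, a chemokine that draws T cells, fell from a WT mean of 16.8 ± 2.61 CPM (SD, n = 4) to 4.22 ± 1.53 CPM (SD, n = 4), with log2 fold change -1.98 (edgeR-adjusted p = 0.00021). *Irf8* and *Ciita*, the master regulator of MHC class II genes in antigen-presenting cells, had log2 fold changes of -0.74 and -2.25 (edgeR-adjusted p = 0.000419 and 0.00117). The summed myeloid markers were also lower in KO samples (at most 333.6 CPM, against at least 476.9 CPM in WT). The 4 targets called lower were *Cxcl10*, *Irf8*, *Ciita* and *Cxcl9* (log2 fold change -2.10, edgeR-adjusted p = 0.00769), and the part of myeloid RNA in them was not tested.

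Among targets of IL-2 and STAT5, 2 of 18 were called higher and 3 lower, beside 2.91% and 1.99% of all genes, with medians on the log2 scale of 0.12 for the list and -0.01 for all genes. *Il2ra* is one of the higher genes. *Lta*, which encodes lymphotoxin alpha, was at 22.6, 36.6, 20.6 and 36.4 CPM in WT and at 78.0, 60.6, 70.0 and 71.6 CPM in KO samples, with log2 fold change 1.27 (edgeR-adjusted p = 0.000163). *Myc*, a driver of cell growth, fell from a WT mean of 72.1 ± 11.2 CPM (SD, n = 4) to 33.2 ± 10.1 CPM (SD, n = 4), with log2 fold change -1.11 (edgeR-adjusted p = 0.00084). *Tnfrsf4*, the costimulatory receptor OX40, had log2 fold change -1.02 (edgeR-adjusted p = 0.00031).

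Most other cytokine genes were silent or near-silent in these cells. Of 36 on the list, 9 had no count in any sample and 15 were tested, of which 1 was called, lower in KO cells, where 1.99% of all genes were called lower. That gene was *Spp1*, which encodes osteopontin and is also abundant in macrophages. It was at 28.4, 74.6, 53.3 and 48.9 CPM in WT and at 3.81, 7.03, 5.17 and 3.27 CPM in KO samples, with log2 fold change -3.44 (edgeR-adjusted p = 6.52e-07). The most abundant on the list were *Tgfb1*, a suppressive cytokine, and *Il16*, a chemoattractant. *Tgfb1* averaged 193 ± 17.7 CPM (SD, n = 4) for WT against 267 ± 27.2 CPM (SD, n = 4) for KO samples without overlap, and its log2 fold change of 0.47 did not reach the fold threshold (edgeR-adjusted p = 0.00606). *Il16* was at 92.4 ± 2.66 CPM (SD, n = 4) and 96.1 ± 11.6 CPM (SD, n = 4).

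Genes near the 6 cytokine genes were examined for changes of a whole region. Within 100 kb, 34 genes other than the 6 are annotated and 10 were tested. None of the 10 was called by edgeR or DESeq2, where 4.9% of all genes tested were called by edgeR, and 2 had an unadjusted p under 0.05 from edgeR. *Ahcyl1*, the tested neighbor of *Csf1*, averaged 105 ± 16.7 CPM (SD, n = 4) for WT against 112 ± 7.37 CPM (SD, n = 4) for KO samples, a log2 fold change of 0.10, at a distance of 44.5 kb. *Il3*, a growth factor gene that lies 15.6 kb from *Csf2* on the same strand, was at 0.755, 0.654, 2.04 and 7.51 CPM in WT and at 1.64, 0, 0 and 0.739 CPM in KO samples. Its log2 fold change of -2.14 had the sign of that of *Csf2* and did not pass (edgeR-adjusted p = 0.259). *Ifngas1*, a noncoding RNA 56.1 kb from *Ifng*, had log2 fold change -1.07 (edgeR-adjusted p = 0.704). Antisense genes that share exon bases with *Il21* (*Gm12534*) and *Csf2* (*Gm12223*) had 3 and 7 counts over all samples.

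After the genotype means were removed, no common course of the 6 genes was seen over the 8 samples. *Il2*, *Il10*, *Il21* and *Csf2* held only 180 to 459 counts each, so counting error could hide a shared course. Pearson correlations of log2 CPM between the 6 genes ran from -0.59 (*Il2* with *Il10*) to 0.75 (*Ifng* with *Il21*), as a description over samples that share their libraries and depth. Among 11229 genes with a mean log2 CPM above 2, the closest to *Csf1* within genotypes was *Gzmf*, a granzyme gene (Pearson's r = 0.99, n = 8 samples), followed by *0610010F05Rik* (r = 0.98) and *Klri2*, a killer lectin-like receptor gene (r = 0.96). Reads of granzyme genes may be split between paralogs of similar sequence. Between genotypes *Gzmf* was called lower (log2 fold change -1.38) and *Klri2* higher (2.06), whereas *Csf1* was higher. The closest to *Ifng* was *Canx* (r = 0.97), to *Il2* *Limd1* (r = 0.96), to *Il10* *Gm13050* (r = 0.97), to *Il21* *Gm9774* (r = 0.98) and to *Csf2* *Rab11b-ps2* (r = 0.97). Between 30 and 58 genes had a correlation above 0.9 with each of the 6, and 4 of the 18 closest genes were also among the closest by Spearman correlation.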

How the data were processed

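The samples were 8 libraries of sorted TILs, 4 per genotype. The authors mapped reads to GRCm38 with STAR and counted them per GENCODE gene with featureCounts, and the deposited values are raw counts, without normalization. Their GC correction was not used, and whether counting used the strand is not given in the sources used here. The labels name no column, so each column got its genotype from the sample names of the study's principal component plot. Totals were 11657807 to 30295406 counts, and counting limits cover counting error only. The samples of a genotype are separate mice or pools of 2 mice.

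In R 4.3.3, edgeR 4.0.16 filtered the counts (filterByExpr), scaled them by TMM and ran its quasi-likelihood test (glmQLFTest) with genotype as the only term over 15378 genes. Calls needed a change of more than 1.5-fold and a Benjamini-Hochberg adjusted p below 0.01. CPM use the TMM-scaled library, and log2 CPM add a prior count of 2. The SE is the size of the log2 fold change divided by the root of F, and 95% intervals use the degrees of freedom of that test. Permutation tests were two-sided and enumerated all 70 arrangements of 4 samples against 4. Where a sample was left out, they enumerated all arrangements of the remaining samples, which are fewer. RPKM used exon lengths of GENCODE M21, found for 55154 of 55335 gene IDs. Promoters are RefSeq windows of GRCm38.p6, with no window for *Il10*, and proteins were not used here. The fit was tested on simulated data.

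The 6 genes, the lists and the tests were chosen with earlier results of these data known. Named are the 6 genes, *Kdm1a*, up to 4 called genes of each list by smallest adjusted p (or the 2 most abundant tested genes where fewer than 2 were called), neighbors and closest genes. *Cd4*, *Zbtb7b*, *Foxp3*, *Cd8a*, *Cd44*, *Cd8b1*, *Cd3g*, the uncalled receptor genes and the genes of the last paragraph were named after their values were seen. Alternatives were other scaling, other filters, DESeq2 1.42.0, edgeR's likelihood ratio test, a threshold of 0.05, GC offsets (mgcv 1.9.3), the myeloid marker score as a covariate, and leaving out each sample.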

Additional observations from a re-analysis of the deposited data

Results flagged for a closer look

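In 4 of 64 sets of 4 samples, one sample lay far from the rest, and chance gives about 1 in 20, or 3.2. Distance is the gap to the closest other sample divided by the whole range of the set. It was 0.869 for *Ifng* in S4 (WT), at 8.83 log2 CPM where the rest of the WT samples were at 8.12 to 8.21, and S4 is the sample without which *Ifng* was called. It was 0.877 for *Csf1* in S8 (KO), at 7.38 against 8.20 to 8.32, and *Csf1* was called with and without S8. It was 0.939 for *Tgfb1* in S5 (KO), at 8.27 against 7.97 to 7.99. It was 0.933 for the log2 ratio of *Csf1* to *Csf2* in S7 (KO), at 11.8 against 7.49 to 7.78, where S7 had 0 counts of *Csf2*.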

How the results depend on the processing

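*Csf1* kept its direction under all 18 alternatives and its call under 17 of them. When each sample was left out, its log2 fold change was 1.31 to 1.68 and edgeR's adjusted p was 1.93e-05 to 0.000933. Over all alternatives the lowest adjusted p, 1.19e-35, came from the edgeR fit without a filter on low counts. The call was lost in the fit with the myeloid marker score as covariate (2.60, edgeR-adjusted p = 0.0846). The score separates the genotypes, and with it the number of called genes fell from 753 to 21 and the genes called on the 6 lists from 19 to 0, while 12 of the 114 tested had an unadjusted p under 0.05 in that edgeR fit and DESeq2, without the score, called 22. With it the log2 fold changes of *Il10* (-0.86), *Csf1r* (0.022), *Il16* (-0.21), *Ptbp1* (-0.063) and *Tnfaip3* (-0.12) turned direction (*Csf1r* is part of the score, which moves its value toward 0 by construction), and *Il16*, at -0.026 to 0.117 with a sample left out, also turned without S8. The cause was not tested. *Ifng* was called only without S4 (0.68). It lay between 0.41 and 0.68 when each sample was left out. *Il2* lay between -0.84 and 0.15, *Il10* between 0.53 and 1.13 and *Csf2* between -2.45 and -1.61. *Il21* lay between 1.10 and 1.95 in the 5 of the 8 fits in which it passed the filter. It reached 3.30, 7.35 and 2.59 CPM in S4, S6 and S7 and at most 0.457 CPM in the other samples. The fits without S4, S6 or S7 did not pass the filter, so the *Il21* range cannot show how far its value rests on these samples. Left-out samples gave 546 to 749 called genes over the table and 13 to 20 on the lists. The difference for *Csf1* to *Csf2* was 2.84 to 4.49 and missed 0.05 without S6, S7 or S8 (exact permutation p = 0.0571). Over all samples, WT ended at 6.64 and KO began at 7.49 in that ratio. Leaving a sample out cannot make groups overlap that lie apart, so it does not test their separation. A left-out sample leaves fewer arrangements, so these p move in coarser steps. Differences were -1.29 to -0.83 for *Ifng* to *Csf1* and 1.88 to 3.43 for *Ifng* to *Csf2*. They were -2.61 to -1.46 for *Il2* to *Csf1*, which passed 0.05 without S8. No filter gave 1173 and a threshold of 0.05 gave 1246 called genes, against 1105 with DESeq2 and 1098 with the likelihood ratio test, which stayed within 1.5 times. Over the longest transcript, *Csf1* was at 64.8 RPKM in KO cells, because that transcript is shorter than the exons combined, and *Il21* was at 0.846 RPKM in KO and 0.297 RPKM in WT cells, 1.71 times the levels over all exons. By Spearman correlation, 4 of the 18 closest genes stayed among the closest. No paired analysis was possible because the columns carry no replicate numbers. Depth limits *Il2*, *Il10*, *Il21* and *Csf2*, which held 180 to 459 counts each over all samples.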

Other observations

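A pair of cytokine genes outside the 6, chosen after their values were seen, were nearly absent in WT cells and low in KO cells. *Il13*, a type 2 cytokine gene, was at 0, 0.218, 0.49 and 1.82 CPM in S1 to S4 and at 6.04, 6.38, 1.00 and 5.28 CPM in S5 to S8, with log2 fold change 2.94 (SE 0.88, edgeR-adjusted p = 0.0406). *Il18*, which encodes a cytokine that induces IFN-γ, reached at most 0.654 CPM in a WT sample and lay between 1.75 and 3.35 CPM in the KO samples, with log2 fold change 3.70 (edgeR-adjusted p = 0.0423). Neither passed the adjusted p threshold of 0.01. Both genes passed the filter on low counts only through their KO samples, so these fold changes and p are no separate support for a rise. On the same list, *Il1b* (log2 fold change -1.32, edgeR-adjusted p = 0.0174) and *Lif* (-1.31, edgeR-adjusted p = 0.0537) were lower in KO cells and were not called. The part of other cells in these values was not tested.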
